A study of Mus musculus with 14 samples.

Results

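The 9 early enzymes of cholesterol synthesis described here, on the route from acetoacetyl-CoA to lanosterol, were Hmgcs1, Mvk, Pmvk, Mvd, Idi1, Fdps, Fdft1, Sqle and Lss. They were found by symbol among the 17552 genes of the deposited gene table, and all 9 were present, each with a sum of more than 100 counts over the groups. All 9 were higher in the livers of mice given erythrodiol than in controls, from 1.19-fold for Pmvk to 1.87-fold for Sqle, with a median of 1.46-fold. Each gene had 1 pooled value per group, so that no spread between libraries could be set beside these ratios and no test was possible.

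Cholesterol is built in the cytosol and the endoplasmic reticulum from acetyl-CoA. Hmgcs1 makes HMG-CoA near the start of the route, and Mvk, Pmvk and Mvd convert mevalonate to isopentenyl diphosphate. Idi1 turns part of it into dimethylallyl diphosphate, Fdps joins these units to farnesyl diphosphate, Fdft1 couples farnesyl diphosphate to squalene, Sqle oxidizes squalene, and Lss closes the rings to lanosterol. In the liver, transcription of this pathway is known to be driven by SREBP2, encoded by Srebf2, which is held in the endoplasmic reticulum when sterols are abundant.

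Hepatic RNA came from male Apoe-deficient mice of strain C57BL/6 and aged 8 weeks by the labels (C57BL/6J by the methods), which lack apolipoprotein E and develop fatty liver and high plasma cholesterol. The control group received a Western diet and the erythrodiol group the same diet with erythrodiol, a triterpene alcohol of the olive. The dose, which the study's methods estimate from an assumed daily intake, was 10 mg per kg of mouse. For each group 7 libraries were sequenced. The labels also give 8 weeks of diet, whereas the study's methods give a longer period. The age of 8 weeks therefore reads as that at the start of the diet, and the livers would have come from older mice. Each library was a pool of RNA from a few mice, so that an animal could not be told from its pool, and both groups share the Apoe deficiency, the diet and the male sex. In the deposited table Apoe still had 9403 control counts and 8293 erythrodiol counts, and the labels do not say which part of the gene was deleted. Hepatocyte markers summed to 129780 counts per 1000000 in the control and 131379 with erythrodiol, so that the markers of the labelled tissue were present.

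Gene values were expected counts, summed by the submitters over the libraries of a group. They totalled 122889032 in the control and 124686047 in the erythrodiol group. A ratio below is the erythrodiol count over the control count after division of each by its group total, and its interval is the 95% exact binomial interval, which covers counting error only and not the spread between mice or libraries. Among the 13291 genes whose group counts summed to at least 100, the median log2 ratio was 0.16, so that a typical gene was already 1.12-fold higher on this scale.

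The sequences before the start sites are shown because the enzymes were higher together and because SREBP2 acts through short elements in such promoters. RefSeq promoters of GRCm38.p6 were at hand for 6 of the 9 enzymes, 7 promoters in all, since Pmvk has a pair of start sites. There was no entry for Fdps, Fdft1 and Sqle. The 250 bases before the start site are printed for the promoter with a sterol regulatory element (Hmgcs1), the one with the most CCAAT boxes (Mvk), the enzyme of this set with the highest ratio (Idi1) and the one with the lowest (Pmvk, first start site), each on the strand of the gene, with CCAAT or its complement ATTGG and, for Hmgcs1, TCACCCCAC in capitals.
Hmgcs1, chr13:119690101-119690350, plus strand: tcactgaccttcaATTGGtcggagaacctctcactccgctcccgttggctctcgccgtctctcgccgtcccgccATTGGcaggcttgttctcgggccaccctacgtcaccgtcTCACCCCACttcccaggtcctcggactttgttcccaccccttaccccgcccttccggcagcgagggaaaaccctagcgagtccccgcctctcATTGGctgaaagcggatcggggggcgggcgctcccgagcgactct
Mvk, chr5:114444019-114444268, plus strand: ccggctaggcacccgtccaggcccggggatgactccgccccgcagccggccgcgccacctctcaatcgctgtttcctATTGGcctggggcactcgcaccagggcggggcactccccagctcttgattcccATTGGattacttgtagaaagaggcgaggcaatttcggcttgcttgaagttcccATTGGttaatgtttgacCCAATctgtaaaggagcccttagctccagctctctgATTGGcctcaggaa
Idi1, chr13:8885356-8885605, plus strand: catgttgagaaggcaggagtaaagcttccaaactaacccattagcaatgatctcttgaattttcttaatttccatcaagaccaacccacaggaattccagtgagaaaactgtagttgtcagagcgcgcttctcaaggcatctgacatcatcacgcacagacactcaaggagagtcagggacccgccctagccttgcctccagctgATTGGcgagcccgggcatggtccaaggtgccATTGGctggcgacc
Pmvk, chr3:89454291-89454540, plus strand: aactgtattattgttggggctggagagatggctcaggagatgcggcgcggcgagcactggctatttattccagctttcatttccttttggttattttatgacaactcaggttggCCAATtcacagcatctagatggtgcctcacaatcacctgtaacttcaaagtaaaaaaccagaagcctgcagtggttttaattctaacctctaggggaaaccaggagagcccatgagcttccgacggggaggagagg

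A search on both strands, from 250 bases before to 50 bases after the start, found the sterol regulatory element TCACNCCAC in 1 of the 7 promoters, that of Hmgcs1, where it begins at position -137 from the start site. It was present in 1.24% of all 32851 promoters of the table. The shorter CACNCCAC, which lies inside the longer motif, was likewise found in the Hmgcs1 promoter alone of the 7 and in 6.24% of all promoters. CCAAT, the box bound by NF-Y, was present in 6 of the 7 promoters and in 37.4% of all promoters. Mvk held 5 copies, Hmgcs1 4, Mvd and Idi1 2 each, Lss 1 and the first Pmvk promoter 1, while the second Pmvk promoter held none. GGGCGG, a site of Sp1, was found in 5 of the 7 promoters and in 35.7% of all promoters, and the E-box CACGTG in 0 of the 7 and in 7.15% of all. These are matches of letters in a short window, and no binding was measured.

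The enzymes were not equally abundant. On the scale of counts per kilobase of deposited length and per 1000000 counts of the group, which allows a comparison between genes, Fdps had the highest level in both groups, with 47.1 in the control and 66.0 with erythrodiol. Hmgcs1 followed with 27.9 and 40.7, and Fdft1 with 15.4 and 20.9. The lowest level was that of Mvd, 2.23 and 3.45, so that the highest and the lowest enzyme differed 21.1-fold in the control and 19.2-fold with erythrodiol.

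In the middle of the order lay Pmvk, with 9.41 in the control and 11.2 with erythrodiol, and Idi1, with 8.59 and 15.7. Pmvk was thus above Idi1 in the control and below it with erythrodiol. Sqle had a level of 4.52 in the control and 8.47 with erythrodiol, and Mvk 4.45 and 5.79. The control levels of Sqle and Mvk had overlapping counting intervals, the only such neighbours in either group. Lss had 3.33 and 5.15. The 4 enzymes with the highest ratios, Sqle, Idi1, Lss and Mvd, held places 6, 5, 8 and 9, respectively, of the 9 control levels. These places rest on the deposited lengths.

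**Figure D1:**
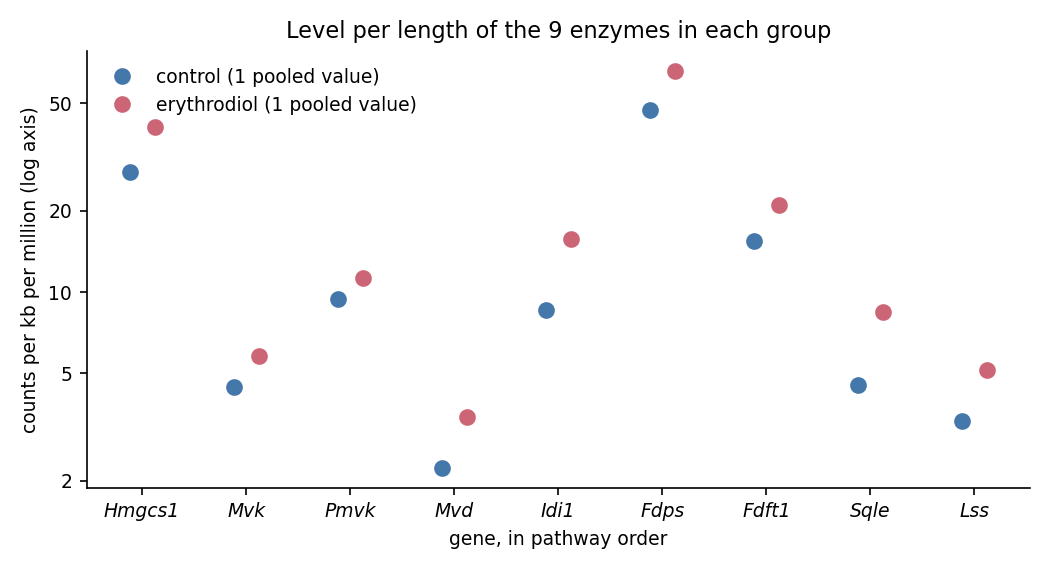
Level of each enzyme in counts per kilobase of deposited length and per 1000000 counts of the group (log axis), in pathway order, with 1 pooled value per group and no error bar. The erythrodiol point lies above the control point for all 9 genes, and levels run from 2.23 (Mvd, control) to 66.0 (Fdps, erythrodiol).

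Where the length comes from affects this order. The deposited length of Lss is 5964 bases, and the submitters' annotation adds 1 assembled transcript to it, with 22 exons from 76531565 to 76557336 of chromosome 10, 1 of its 21 junctions not in GENCODE M21 and a last exon of 4400 bases. Fdft1 received 2 added transcripts, of 7 and 8 exons on chromosome 14, all of whose junctions are annotated, and the other 7 enzymes received none. For comparison, 28.5% of the genes in the table had at least 1 added coding transcript. With the longest GENCODE transcript as the length, a choice made after seeing the data, Hmgcs1 (28.1 in the control) stood above Fdps (20.7).

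The first enzyme, Hmgcs1, on chromosome 13 from 119690351 to 119708260, had 11983 control counts and 17762 erythrodiol counts. This was 1.46-fold higher, a log2 ratio of 0.55 with an interval from 0.51 to 0.58. It supplied the largest part of the counts of the 9 enzymes and the largest gain in counts per 1000000, from 97.5 to 142.5.

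Of the 3 enzymes that convert mevalonate, Mvd differed most. Mvk, on chromosome 5 from 114444264 to 114460591, phosphorylates mevalonate and had 947 control counts and 1251 erythrodiol counts, 1.30-fold higher (log2 ratio 0.38, interval 0.26 to 0.50). Pmvk, on chromosome 3 from 89454541 to 89469014, adds the next phosphate and had 1392 and 1685 counts, 1.19-fold higher (log2 ratio 0.25, interval 0.15 to 0.36). The lower end of the Pmvk interval lies below the median of all genes, 0.16, and it was the only enzyme for which this was so. Mvd, the decarboxylase, on chromosome 8 from 122433596 to 122443422, had 483 and 757 counts, 1.54-fold higher (log2 ratio 0.63, interval 0.46 to 0.79). Mvd was the enzyme with the fewest counts and the widest interval.

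Idi1 and Fdps make the building units and join them. Idi1, on chromosome 13 from 8885606 to 8892396, had 3045 control counts and 5637 erythrodiol counts, 1.82-fold higher (log2 ratio 0.87, interval 0.80 to 0.93). Its relative Idi2, a muscle enzyme, had 0 control counts and 1 erythrodiol count, which leaves Idi1 as the isomerase counted in these livers. Fdps, on chromosome 3 from 89093588 to 89101967, had 7515 and 10686 counts, 1.40-fold higher (log2 ratio 0.49, interval 0.44 to 0.53).

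The last 3 enzymes lead from farnesyl diphosphate to lanosterol, the part of the pathway that yields sterols alone. Fdft1, the squalene synthase, on chromosome 14 from 63145150 to 63181687, had 7048 control counts and 9715 erythrodiol counts, 1.36-fold higher (log2 ratio 0.44, interval 0.40 to 0.49). Sqle, the squalene epoxidase and a rate-limiting step, on chromosome 15 from 59315092 to 59331193, had 1527 and 2902 counts. At 1.87-fold (log2 ratio 0.91, interval 0.82 to 1.00), its ratio was the highest of the 9. Lss, on chromosome 10 from 76531565 to 76557139, had 2439 and 3833 counts, 1.55-fold higher (log2 ratio 0.63, interval 0.56 to 0.71).

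In the order of ratios, Sqle and Idi1 had overlapping intervals, and both lay above Lss and Mvd without overlap. From Lss down to Pmvk, each neighbouring pair overlapped, so that counting error alone does not separate neighbours there. The 9 enzymes together had 36379 control counts and 54228 erythrodiol counts, or 296 and 435 counts per 1000000. The summed ratio was 1.47 (95% interval 1.45 to 1.49), a log2 ratio of 0.55.

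At least 1.5-fold higher were 4 of the 9 enzymes, Mvd, Idi1, Sqle and Lss, beside 2.55% of all 13291 genes. At least 1.5-fold lower were 0 of the 9, beside 3.14% of all genes. At a lower limit, a log2 ratio of 0.32, 8 of the 9 were higher, all but Pmvk, beside 24.4% of all genes. The median log2 ratio of the 9 was 0.55, 0.38 above that of all genes, and all 9 lay above the median of all genes. Relative to that median, Pmvk was 0.09 and Sqle 0.74 higher on the log2 scale.

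Ratios in this table depended on gene length, and therefore each enzyme was set beside the 500 genes nearest to it in deposited length. Over 10 bins of length, the median log2 ratio of all genes went from -0.18 in the shortest genes, of 333 to 1211 bases, to 0.33 in the longest. The enzymes are spread over this range, from 1204 bases for Pmvk to 5964 for Lss. All 9 were above the median of their genes of like length, by 0.34 in the median on the log2 scale. The distance was 0.75 for Sqle, 0.71 for Idi1, 0.56 for Mvd and 0.51 for Fdps. For Lss, whose neighbours were themselves higher by 0.30, it was 0.34, for Hmgcs1 0.33, for Mvk 0.31 and for Pmvk 0.28, and it was 0.24 for Fdft1.

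Idi1 stood above all of its 500 genes of like length, and Sqle above 99.8% of them. Hmgcs1, Mvd, Fdps and Lss were above 97.0% to 98.2% of theirs. The lowest places were those of Fdft1 (91.0%), Mvk (89.6%) and Pmvk (87.2%). At least 1.5-fold above the median of genes of like length were 2 enzymes, Idi1 and Sqle, beside 1.02% of all genes. Fdps, a short gene, thus moved up in the order once length was taken into account, and Lss, the longest, moved down.

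**Figure D2:**
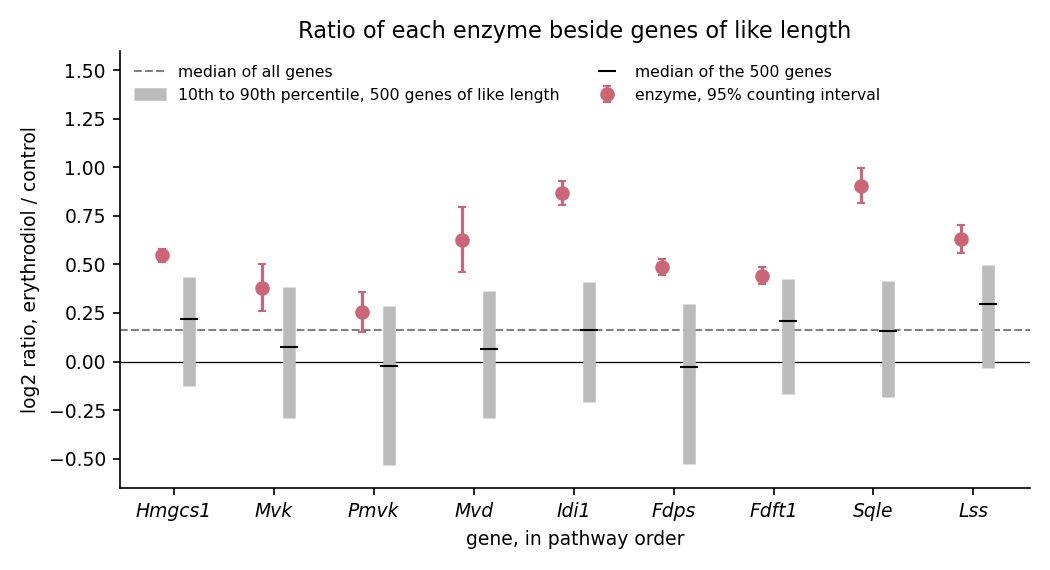
Log2 ratio of erythrodiol to control for each enzyme (red points, bars give the 95% counting interval) beside the 500 genes nearest in length (grey bars from the 10th to the 90th percentile, black marks at the median); the dashed line is the median of all genes, 0.16. All 9 points lie above the black mark, and only Mvk and Pmvk lie within the grey bar.

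**Figure D3:**
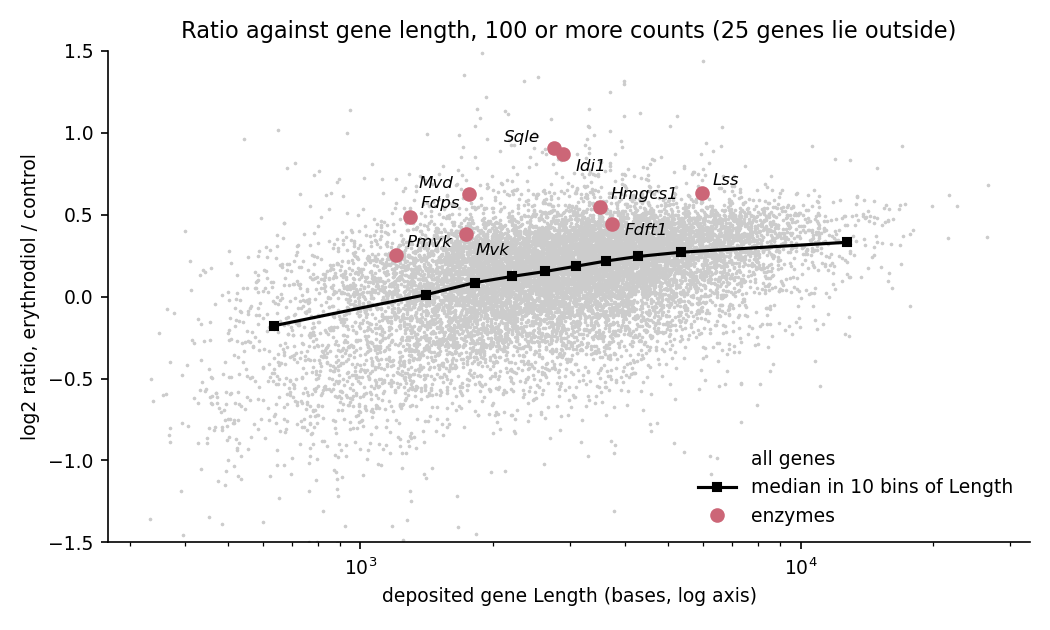
Log2 ratio against deposited gene length in bases (log axis) for genes of at least 100 counts; grey points are genes, black squares the medians in 10 bins of length, red points the 9 enzymes. The black line climbs from -0.18 to 0.33, and every enzyme lies above it; 25 genes fall outside the plotted range.

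Reads of some enzymes could be shared with other genes. Idi1 and Fdft1 had counts that were not whole numbers, as the estimation gives when a read fits more than 1 gene, while the counts of the other 7 were whole. Fdft1 overlaps the 3′ end of Ctsb, a cathepsin on the opposite strand, by 774 bases. Ctsb had 102379 control counts and 107414 erythrodiol counts, a log2 ratio of 0.05, and the sources used here do not state that strand was used in counting, so that the Fdft1 value is uncertain. At 95% identity over at least 200 bases, GENCODE M21 also holds 4 processed pseudogenes of Fdps, 2 of Idi1 and 1 of Fdft1. Fdps also overlaps Gm43738, a protein-coding gene model on its own strand that is identical to 929 of the 1382 bases of its transcript, and Hmgcs1 overlaps the antisense Gm48342 over 462 bases. None of these pseudogenes and gene models has a row in the gene table. How many reads of these enzymes came from such copies was not tested.

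A pooled value can hide unequal libraries, and the mapping summary of the 14 libraries shows how much each could weigh. Of the read pairs mapped to genes, single control libraries gave 9.12% to 17.3% of their group and single erythrodiol libraries 13.9% to 14.6%. If the heaviest control library had held no reads of an enzyme and all else had been alike, the log2 ratio would have been 0.27. With group totals only the ratio of Pmvk lies below this. With median ratio scaling that of Mvk, 0.22, does so too, and that of Fdft1, 0.28, is close to it. If all of a ratio came from the heaviest erythrodiol library with all else alike, that library would have to hold 6.96 times the control level of Sqle, 6.63 times that of Idi1 and 2.32 times that of Pmvk.

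In 3 control libraries, replicates 1, 3 and 4, the share of reads mapped to a unique gene was below that of every erythrodiol library. It was 51.4%, 52.7% and 54.2%, whereas the erythrodiol libraries went from 57.9% to 65.3% and the other 4 control libraries from 60.9% to 67.1%. The 3 libraries gave 39.4% of the control reads. With group totals, the ratios of Idi1 and Sqle exceeded those given by no reads in these 3 libraries, all other libraries being alike. With median ratio, TMM and upper-quartile scaling, Idi1 (log2 ratios 0.71, 0.71 and 0.70) did not exceed this bound, while Sqle (0.74, 0.75 and 0.74) did. With group totals, the other 7 enzymes would reach their ratios with levels in the 3 libraries between 0.101 (Lss) and 0.589 (Pmvk) of the level elsewhere. Values without these libraries were not computed, since the gene table used here holds no value per library.

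The same direction was seen for the late part of the route to cholesterol. The 10 late enzymes in the table, from lanosterol to cholesterol, had a median log2 ratio of 0.51, with 3 at least 1.5-fold higher and 0 lower, beside 2.55% and 3.14% of all genes. These were the dehydrogenase Nsdhl (1.73-fold), the last reductase Dhcr7 (1.57-fold) and the lanosterol demethylase Cyp51 (1.54-fold). Only Nsdhl stayed at least 1.5-fold higher with median ratio scaling or relative to genes of like length, beside 0.865% and 1.02% of all genes. Median distances from genes of like length were 0.37 for the late and 0.34 for the early enzymes.

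Targets of SREBP2 outside the pathway had a median log2 ratio of 0.63, with 7 of 12 at least 1.5-fold higher and 0 lower, beside 2.55% and 3.14% of all genes. With median ratio scaling, and likewise relative to genes of like length, 1 of the 12 was at least 1.5-fold higher, Fads2, beside 0.865% and 1.02% of all genes. Among these targets the largest ratios were those of the desaturases Fads2 (1.68-fold) and Fads1 (1.66-fold) and of the phosphatidate phosphatase Lpin1 (1.61-fold). Fads1 and Fads2 are also known targets of SREBP1.

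The genes that regulate SREBP differed less. Of 16, 0 were at least 1.5-fold higher and 1 was lower, beside 2.55% and 3.14% of all genes. Their median log2 ratio was 0.21, beside 0.16 for all genes. Relative to genes of like length their median distance was -0.01, and 7 of the 16 lay above their genes of like length. Srebf2 had 4186 and 5880 counts (log2 ratio 0.47, interval 0.41 to 0.53), and Scap, the escort that senses sterols, a log2 ratio of 0.39. Insig1, which retains SREBP in the endoplasmic reticulum and is itself a target of SREBP, had 15060 and 18695 counts, a log2 ratio of 0.29. Its relative Insig2 had 27992 control counts and 18422 erythrodiol counts, a log2 ratio of -0.62 (interval -0.65 to -0.60). Srebf1, which mainly drives fatty acid synthesis, was at 0.14, below the median of all genes. The distances from genes of like length were 0.20 for Srebf2, 0.15 for Scap and 0.14 for Insig1. They were -0.78 for Insig2 and -0.11 for Srebf1.

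Genes that feed the pathway or branch from it had smaller medians. The 8 genes of acetyl-CoA supply and HMG-CoA had a median log2 ratio of 0.36. At least 1.5-fold higher was 1 of them and 0 were lower, beside 2.55% and 3.14% of all genes. Acly and Acat2, which make cytosolic acetyl-CoA and acetoacetyl-CoA, had log2 ratios of 0.43 and 0.42. The 15 genes of prenylation, dolichol and ubiquinone, which use farnesyl diphosphate for other ends, had a median of 0.12. Past 1.5-fold were 0 in either direction, beside 2.55% higher and 3.14% lower of all genes. Among them Rabggta (0.42) and Dhdds (0.37) were highest, and Rabggtb was at -0.30.

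**Figure D4:**
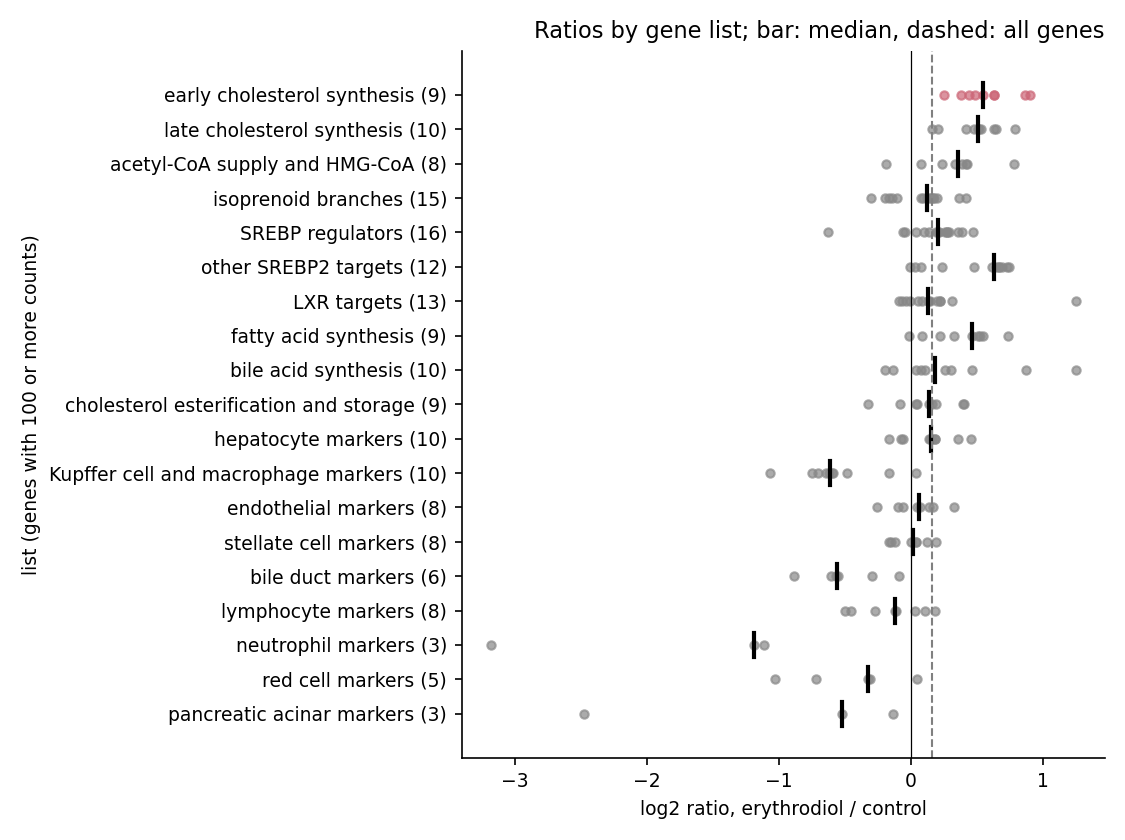
Log2 ratio of each list gene that reached 100 counts, with the number of genes in brackets, the list median as a black bar, 0 as a solid line and the median of all genes, 0.16, as a dashed line. The early and late cholesterol enzymes (medians 0.55 and 0.51) and the other SREBP2 targets (0.63) lie to the right of the dashed line, and macrophage, bile duct and neutrophil markers (-0.61, -0.56 and -1.19) to the left of 0.

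Pooled values of markers of several cell types differed between the groups as well. In bulk liver fewer cells of a type and less RNA per cell cannot be told apart. Of 10 Kupffer cell and macrophage markers, 7 were at least 1.5-fold lower and 0 higher with erythrodiol, beside 3.14% and 2.55% of all genes. With median ratio scaling 8 were lower, and 5 relative to genes of like length, beside 6.16% and 3.5% of all genes. The sum of these markers went from 1421 to 933 counts per 1000000. The sum of the 6 bile duct markers was 117 in the control and 79.6 with erythrodiol, mostly from Spp1 (102 and 67.1). The 8 neutrophil markers summed to 13.2 and 4.88, and the 6 red cell markers to 1264 and 929. Pancreatic acinar markers summed to 15.0 and 10.5, mostly from Cela1 (12.8 and 8.93), whereas 2 scarce members of that list were higher with erythrodiol, Ctrb1 with 8 and 42 counts and Cpa1 with 2 and 15. Lymphocyte markers summed to 37.8 and 32.5, mostly from Ptprc (27.2 and 22.6), and their log2 ratios went both ways, from -0.50 to 0.18. Endothelial markers summed to 234 and 241 and stellate cell markers to 568 and 542, and no marker of these lists was at 0 in either group. Alb, the main secreted protein of hepatocytes, had a log2 ratio of -0.06, and the 10 hepatocyte markers a median of 0.16, equal to that of all genes to this precision. The part of these shifts in the values of the 9 enzymes was not tested.

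The scale of the groups decided the size of each ratio, and no ratio changed sign under the scalings tried. Each scaling moves all log2 ratios by the same amount, at most by -0.17, and the lowest ratio, that of Pmvk, was 0.25. When the groups were scaled to a median ratio of 1 over genes, all ratios fell by 0.16 on the log2 scale. Then 2 of the 9 enzymes, Idi1 and Sqle, remained at least 1.5-fold higher, beside 0.865% of all genes. The log2 ratios of the 9 went from 0.09 for Pmvk to 0.74 for Sqle. TMM and upper-quartile scaling gave log2 ratios within 0.01 of these. All 9 enzymes were higher with erythrodiol under all 5 scalings. For Pmvk the lower end of the counting interval, 0.15 with group totals, is smaller than the fall under these 3 scalings. Counting error alone thus leaves its direction open there.

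**Figure D5:**
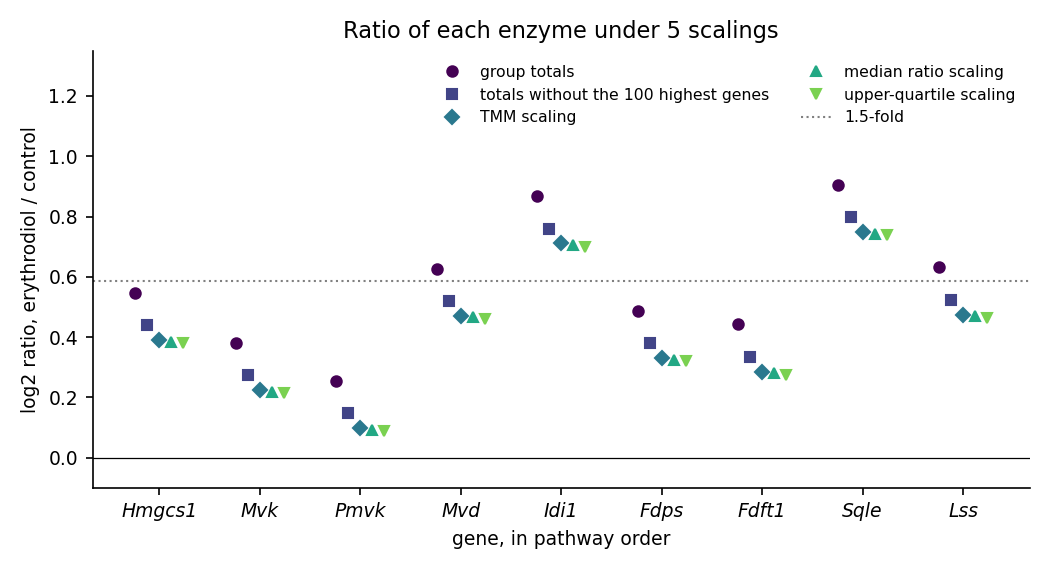
Log2 ratio of each enzyme under 5 ways of scaling the groups, with the limit of 1.5-fold as a dotted line. Group totals give the highest value for every gene, all points lie above 0, and Idi1 and Sqle are the genes above the dotted line under each scaling.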

How the data were processed

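Liver libraries of 7 control and 7 erythrodiol pools were sequenced on the BGISEQ-500 platform, and the labels gave groups and replicate numbers. The authors mapped clean reads with HISAT, assembled transcripts with StringTie and Cufflinks, joined coding ones to the reference, mapped reads to it with Bowtie2 and estimated expression with RSEM, as the study's methods and processing notes state. The deposited gene table gives 1 expected count per gene and group, not normalized, the sum over 7 libraries. The deposited mapping summary gives read counts and mapping rates in percent for each library. The table also holds the authors' own log2 ratio, p-value, q-value and direction per gene, which were not used. RNA was extracted with another reagent by the labels than by the methods. Files on SNPs and splicing were not used here.

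Counts were divided by group totals, without a pseudocount. Intervals are exact binomial (Clopper-Pearson, 95%), and those of levels exact Poisson. They cover counting error only. With 1 pooled value a group no test was made. Medians and shares cover genes whose group counts summed to at least 100, and genes of like length were the 500 nearest in deposited length. Expected counts were rounded for the intervals only. The members and lists were chosen with earlier results of these data known, and beside the 9 enzymes the 3 genes of largest absolute log2 ratio in each of 9 surrounding lists are named, with Srebf2, Insig1, Srebf1, Alb and Apoe. Some genes that this rule takes in are not reported here. Ctsb, Idi2, Ctrb1, Cpa1, Cela1, Spp1, Ptprc, Abcg5, Abcg1, Gm43738 and Gm48342 were named after their values were seen. Some symbols were matched through RefSeq synonyms (GRCm38.p6). Ratios and the length comparison were tested on simulated data. Scaling, filters, limits, neighbours and lengths were varied. Tools were scipy 1.17.1, pandas 2.3.3 and numpy 2.4.6 in Python 3.11.15, matplotlib 3.10.9, edgeR 4.0.16 (scaling factors only) and BLAST 2.17.0.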

Additional observations from a re-analysis of the deposited data

Results flagged for a closer look

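In the control group, replicate 3 stood apart in the share of clean reads mapped to genes, 64.3%, whereas the other 6 control libraries lay between 74.4% and 81.4%. The gap to the nearest library was 0.588 of the range of the group, above the critical value of Dixon's test for 7 libraries. For a single measure, chance marks about 1 group in 20 in this way. The same check was made on the library shares and on the rates of unique mapping, in both groups. A mark somewhere among all these checks is therefore likelier by chance than that. The library gave 9.12% of the control reads on genes. Its part in the values of the 9 enzymes was not tested, since the gene table used here holds no value per library.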

How the results depend on the processing

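No paired analysis was possible because the gene values used here are pooled per group, and for the same reason no library could be left out and no replicate block was run. Against 0.55 with group totals, the log2 ratio of the summed counts was 0.39 with median ratio scaling, 0.40 with TMM, 0.39 with upper-quartile scaling and 0.45 with totals without the 100 highest genes. The median of the 9 enzymes, 0.55, became 0.38, 0.39, 0.38 and 0.44, respectively. The count of enzymes at least 1.5-fold higher went from 4 to 2 under each of these scalings, beside 0.813% to 1.14% of all genes. Relative to genes of like length it was also 2, beside 1.02% of all genes. At a log2 ratio of 0.32 it was 8, beside 24.4%, and at 2-fold 0, beside 0.218% of all genes. With median ratio and TMM scaling, medians near 0 changed sign for isoprenoid branches (-0.038 and -0.033), LXR targets (-0.032 and -0.026), esterification and storage (-0.027 and -0.022), hepatocyte markers (-0.0066 and -0.00095), endothelial markers (-0.10 and -0.10) and stellate cell markers (-0.14 and -0.14). A pseudocount of 1, other minimum counts, 100 or 1000 neighbours and 200 neighbours of like length and level left the medians within counting error. The share of genes at least 1.5-fold higher against lower was 2.55% against 3.14% with group totals and 0.865% against 6.16% with median ratio scaling. Group totals of 122889032 and 124686047 counts make counting error small, and the spread between mice is unknown.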

Other observations

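Cyp7a1, the rate-limiting enzyme of bile acid synthesis from cholesterol and also a target of LXR, had 11875 control counts and 28636 erythrodiol counts, 2.38-fold higher. This was above the ratio of each of the 9 early enzymes. Of the 10 bile acid genes, 2 were at least 1.5-fold higher and 0 lower, beside 2.55% and 3.14% of all genes. The 2 were Cyp7a1 and the oxysterol hydroxylase Cyp39a1 (1.83-fold). Cyp8b1, which sets the share of cholic acid, had a log2 ratio of 0.46. The other LXR targets lay near the median of all genes. Abcg8 and Abca1, which export sterols, had log2 ratios of 0.31 and 0.22, whereas Abcg5 and Abcg1 of the same list were at -0.007 and -0.038. The median of the 13 LXR targets was 0.13.

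The 9 genes of fatty acid synthesis had a median log2 ratio of 0.47, with 1 at least 1.5-fold higher, beside 2.55% of all genes. With median ratio scaling or relative to genes of like length 0 were, beside 0.865% and 1.02% of all genes. Their median distance from genes of like length was 0.18 on the log2 scale, beside 0.34 for the early enzymes. Acacb, an acetyl-CoA carboxylase of the mitochondrial membrane, was at 0.74, its cytosolic counterpart Acaca at 0.55 and the elongase Elovl6 at 0.53. Of the 9 genes of cholesterol esterification and storage, 0 passed 1.5-fold in either direction, beside 2.55% higher and 3.14% lower of all genes. Soat2, which esterifies cholesterol in hepatocytes, was at 0.41, Lcat, its plasma counterpart, at 0.40, and Plin2, the coat protein of lipid droplets, at -0.32. No test was possible for any of these values.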
